A study of Homo sapiens with 6 samples.

Results

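Tetraspanins are small membrane proteins that cross the lipid bilayer several times and gather other surface proteins, among them integrins, metalloproteases and immunoglobulin-superfamily adhesion molecules, into patches of membrane. They carry fatty acid chains added by palmitoyltransferases, and several of them are sorted into vesicles that cells release. The TM4SF proteins of the L6 family have a like topology but a separate sequence ancestry. TM4SF1, the L6 antigen, is a surface antigen of many carcinomas. The 35 genes described here are those whose symbol is TSPAN or TM4SF followed by a number, together with CD9, CD37, CD53, CD63, CD81, CD82 and CD151, out of 20474 annotated genes. All 35 symbols occurred once, and 23 of the genes averaged at least 1 FPKM (fragments scaled to transcript length and to mapped fragments) and were tested.

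The data are polyA RNA sequencing of HCT116 cells, an established human colorectal cancer line, 48 h after transfection. The cells received either an siRNA against POU2F1 (siPOU2F1, 3 libraries, labelled POU2F1 knockdown) or a control siRNA (sicontrol, 3 libraries, labelled WT), and both groups share the line and the transfection. POU2F1 encodes OCT1, a transcription factor that binds octamer DNA. Whether each library had its own culture dish is not stated in the labels, so the replicate spread behind every p-value may be technical.

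POU2F1 itself had 1.87, 1.69 and 1.73 FPKM in siPOU2F1 replicates 1 to 3, against 4.16, 3.60 and 4.26 FPKM in sicontrol replicates 1 to 3. The groups did not overlap (log2 difference -0.99, SE 0.14; limma, adjusted p = 0.0333; exact two-sided permutation p = 0.1, the smallest that 3 libraries against 3 allow). POU2F1 was called in 1 of the 6 fits that left out a library, the one without siPOU2F1 replicate 3 (limma, adjusted p = 0.00946). The library siPOU2F1 replicate 3 stood apart from its group. On the first principal component of all tested genes (60.4% of the variance) siPOU2F1 replicates 1 and 2 lay at 36.1 and 34.9, siPOU2F1 replicate 3 lay at -20.1, and the sicontrol libraries lay between -34.7 and -3.03. On the second component (18.9%) siPOU2F1 replicate 3 lay at -27.8, apart from both groups. There siPOU2F1 replicates 1 and 2 lay at -2.75 and -4.06, and the sicontrol libraries between 1.60 and 17.1. Differences below are from all 6 libraries, and a value without siPOU2F1 replicate 3 is named as such. Of 9 colorectal epithelial markers 6 averaged at least 1 FPKM, EPCAM, KRT8 and KRT18 highest, while CDX1, CEACAM5 and KRT20 were at or near 0. Of 7 leukocyte markers 0 averaged 1 FPKM: PTPRC and MS4A1 were listed at 0 in all 6 libraries, but LYZ and ITGAM were present in all, and the list summed to between 1.88 and 2.098 FPKM in siPOU2F1 and between 1.93 and 2.64 FPKM in sicontrol. Of 5 fibroblast markers DCN was listed at 0 throughout, and COL1A1 had 1.55 to 3.58 FPKM in siPOU2F1 and 1.92 to 2.56 FPKM in sicontrol. The 4 endothelial markers summed to under 1 FPKM in every library. The 9 epithelial markers summed to between 3191 and 4410 FPKM in siPOU2F1 and between 2219 and 2962 FPKM in sicontrol, mostly KRT8 and KRT18, and their part in the results below was not tested.

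The sequence windows shown first are those that bear on OCT1 and on the member that changed. Of the members, 27 had at least 1 promoter in the RefSeq table (GRCh38.p14, 250 bases before to 50 after each start). The octamer ATGCAAAT, the DNA word of OCT1 and its relatives, was searched on both strands and occurred in the promoters of 2 of these 27 genes, TSPAN13 and CD53. It occurred in 1.80% of tested genes with a promoter and in 1.77% of all 35116 promoters. TM4SF1 had none, but held a GC box, GGGCGG on either strand. With TM4SF1, 16 of the 27 members held one, as did 79.3% of tested genes with a promoter and 45.0% of all 35116 promoters. The 27 members include genes too low to test, so neither motif count is like for like with a share of tested genes. In the lines that follow, capitals mark the octamer as read on the gene's strand for TSPAN13 and CD53, and the GC box for TM4SF1. The TSPAN13 window is chr7:16753655-16753684 (plus strand), the CD53 window is chr1:110871153-110871182 (plus strand) and the TM4SF1 window is chr3:149377762-149377791 (minus strand).
TSPAN13: ggagcgcatttATTTGCATatttctacctt
CD53: catgtgattaaATTTGCATtttagaaggct
TM4SF1: atttcgtctgaaGGGCGGgacattccccct
Counted from the RefSeq start, the octamer began at position -89 in TSPAN13 and at -46 in CD53, and the GC box at -130 in TM4SF1. The GENCODE genes TSPAN13 and TM4SF1 begin upstream of their windows. A match of these letters describes the window and is not a binding site by itself.

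A handful of genes held most of the family's RNA. CD9, CD63, CD81, CD151 and TM4SF1 together made up 77.5% to 79.0% of the family's summed FPKM in siPOU2F1 libraries and 77.5% to 79.7% in sicontrol libraries. CD9, which organises adhesion and membrane fusion, led in both groups, averaging 498 ± 109 FPKM in siPOU2F1 and 509 ± 76.4 FPKM in sicontrol (SD, n = 3 each), and ranked 101 among all annotated genes. CD63, the tetraspanin of late endosomes and released vesicles, followed with 269 ± 8.50 FPKM in siPOU2F1 and 291 ± 23.6 FPKM in sicontrol. The CD9 and CD63 ranges did not overlap in either group. Below them the order differed between the groups. In siPOU2F1 cells CD81 (133 ± 15.9 FPKM), TM4SF1 (129 ± 7.09 FPKM) and CD151 (123 ± 17.3 FPKM) had overlapping ranges. In sicontrol cells CD151 (164 ± 8.08 FPKM), CD81 (111 ± 13.0 FPKM) and TM4SF1 (51.6 ± 9.51 FPKM) were separated without overlap, and TM4SF1 overlapped TSPAN4 (46.2 ± 3.97 FPKM), the next below. The family's summed FPKM was 0.394%, 0.376% and 0.330% of the annotated sum in siPOU2F1 replicates 1 to 3 and 0.352%, 0.349% and 0.390% in sicontrol replicates 1 to 3, so the groups overlapped.

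**Figure D1:**
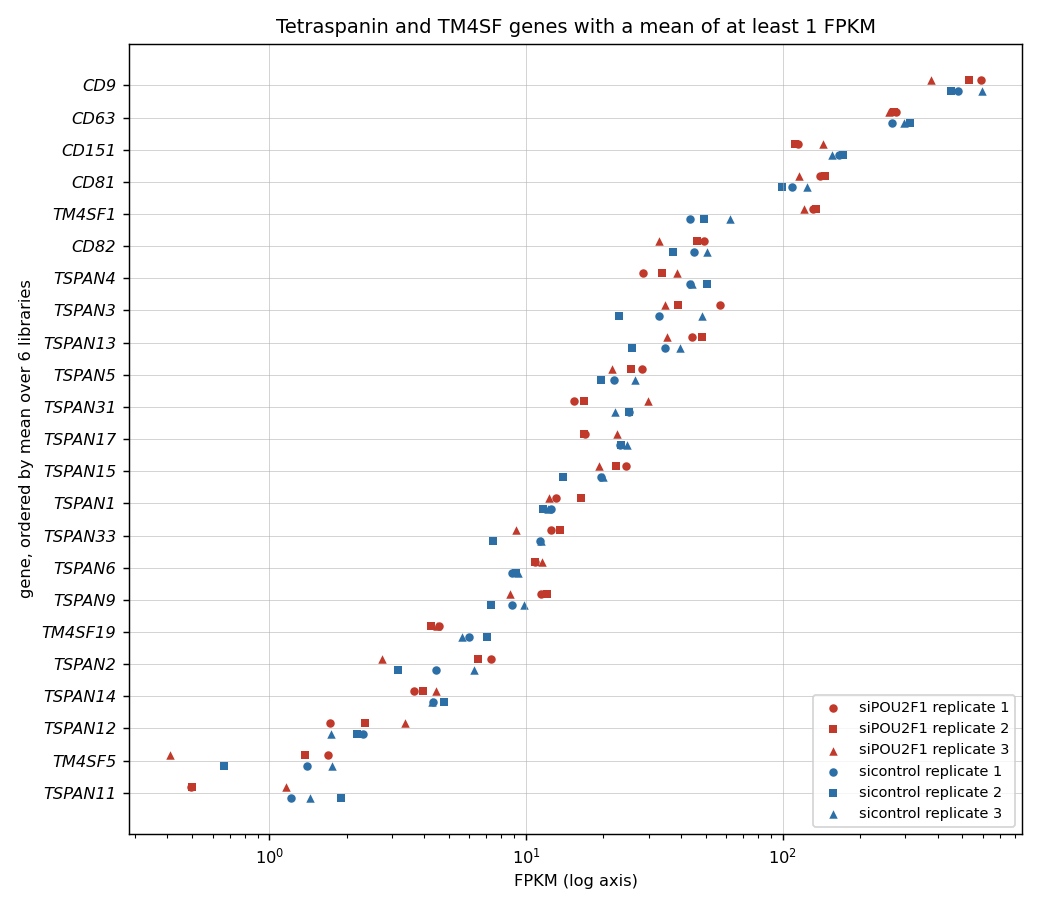
FPKM (log axis) of the 23 tested genes, one row per gene, in the 3 siPOU2F1 libraries (red) and the 3 sicontrol libraries (blue); marker shape gives the replicate. TM4SF1 shows the widest gap between the groups, with siPOU2F1 libraries at 121 to 134 FPKM and sicontrol libraries at 43.5 to 62.1 FPKM.

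Of the 23 tested members 1 was called higher (limma, Benjamini-Hochberg adjusted p under 0.05 over 11831 genes), where 0.397% of all tested genes were called higher, and 0 were called lower, where 0.845% were. At an unadjusted p under 0.05 there were 2 members higher and 5 lower, where 8.22% of all tested genes were higher and 9.90% lower (18.1% together). Groups did not overlap in 7 of 23 members (30.4%), 2 with siPOU2F1 above and 5 with siPOU2F1 below, against 23.4% of all tested genes (11.3% above and 12.0% below). The share of members without overlap is thus near that of all genes. The members' median log2 difference was 0.14, against -0.01 for all tested genes, and 12 were positive and 11 negative.

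TM4SF1 was the called member. It had 131, 134 and 121 FPKM in siPOU2F1 replicates 1 to 3, against 43.5, 49.3 and 62.1 FPKM in sicontrol replicates 1 to 3. Every siPOU2F1 library lay above every sicontrol library, including siPOU2F1 replicate 3, which stood with sicontrol on the first principal component. The mean was 2.49 times that of sicontrol, and the log2 difference was 1.32 (SE 0.14, 95% interval 0.98 to 1.66; limma, adjusted p = 0.0150). Without siPOU2F1 replicate 3 it was 1.37 (limma, adjusted p = 0.00528). Its 6 library values gave p = 0.1 by exact two-sided permutation, the smallest possible. Leaving out sicontrol replicate 1 gave 1.21 (limma, adjusted p = 0.115), sicontrol replicate 2 gave 1.30 (0.0886), siPOU2F1 replicate 1 gave 1.31 (0.0958) and siPOU2F1 replicate 2 gave 1.29 (0.0976), each short of a call. Over all 6 fits that left out a library the difference stayed between 1.21 and 1.46. In bulk RNA, more cells with the transcript and more transcript per cell cannot be told apart.

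TM4SF1 (ENSG00000169908) lies on chromosome 3, 149369022 to 149377865, minus strand (GRCh38), between the relatives TM4SF18, 34607 bases away, and TM4SF4, 96108 bases away, with 0 protein-coding genes wholly between them on either side. Both neighbours were close to silent. TM4SF18 was listed at 0.0158, 0 and 0.0152 FPKM in siPOU2F1 and at 0 in all sicontrol libraries, and TM4SF4, known from intestine and liver, was listed at 0 in all libraries but sicontrol replicate 2 (0.0354 FPKM). The antisense gene TM4SF1-AS1 shares 2.40% of the exonic bases of TM4SF1 and is not analysed here.

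Of the other L6 relatives 2 were tested and neither was called. TM4SF19, on chromosome 3 at 196319342 to 196338503, had 4.56, 4.25 and 4.49 FPKM in siPOU2F1 replicates 1 to 3, against 6.01, 7.06 and 5.61 FPKM in sicontrol replicates 1 to 3. The groups did not overlap, with siPOU2F1 below, and the log2 difference of -0.44 with an SE of 0.13 was not called (limma, adjusted p = 0.165; 0.0558 without siPOU2F1 replicate 3). TM4SF19 shares 42.9% of its exonic bases with the read-through gene TM4SF19-DYNLT2B on the same strand, which averaged 0.124 FPKM in siPOU2F1 and 0.0780 FPKM in sicontrol, so the split of reads between them is uncertain. The antisense gene TM4SF19-AS1, on the opposite strand, shares 28.4% of the exonic bases of TM4SF19 and is not analysed here. TM4SF5, an L6 protein studied in liver cancer, had 1.69, 1.38 and 0.409 FPKM in siPOU2F1 and 1.39, 0.664 and 1.75 FPKM in sicontrol. Its groups overlapped and its log2 difference of -0.14 became 0.25 without siPOU2F1 replicate 3, neither of them called (limma, adjusted p = 0.865 and 0.546). TM4SF20 was listed at 0 in every library.

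**Figure D2:**
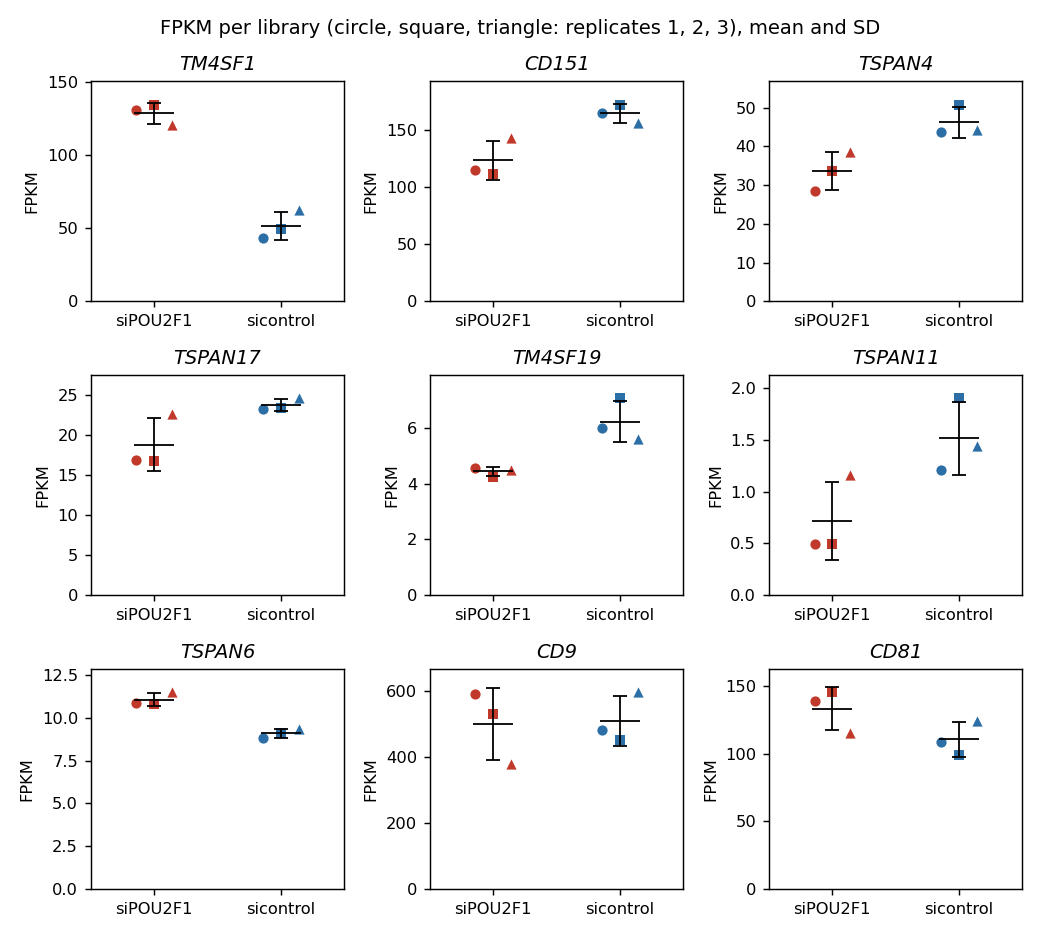
FPKM from 0 in each library for 9 members, siPOU2F1 (red) left of sicontrol (blue) in each panel, with the mean and SD as black bars; circle, square and triangle are replicates 1, 2 and 3. TM4SF1 and TSPAN6 lay above sicontrol in all siPOU2F1 libraries, CD151, TSPAN4, TSPAN17, TM4SF19 and TSPAN11 lay below, and CD9 and CD81 overlapped.

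Among the CD-named tetraspanins, CD151, the partner of laminin-binding integrins, was the one whose groups separated above 1 FPKM. It had 115, 111 and 143 FPKM in siPOU2F1 replicates 1 to 3, against 165, 172 and 156 FPKM in sicontrol replicates 1 to 3. The siPOU2F1 libraries were all lower, replicate 3 least so. The log2 difference was -0.42 (SE 0.12, limma, adjusted p = 0.150, not called), and -0.53 without siPOU2F1 replicate 3 (adjusted p = 0.0117, called). No other fit that left out a library called CD151 (limma, lowest adjusted p = 0.218). CD81, a tetraspanin of released vesicles that also serves as a receptor of hepatitis C virus, had 139, 146 and 115 FPKM in siPOU2F1 and 109, 98.9 and 125 FPKM in sicontrol. Replicate 3 of siPOU2F1 lay within the sicontrol range and the other two above it. Its log2 difference was 0.27 (SE 0.13; limma, adjusted p = 0.330), and 0.37 without siPOU2F1 replicate 3 (0.0594), so it was not called either way.

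CD9 had 589, 530.0 and 377 FPKM in siPOU2F1 replicates 1 to 3 and 482, 450.1 and 595 FPKM in sicontrol replicates 1 to 3. CD82, known as a suppressor of metastasis, had 49.2, 46.4 and 33.02 FPKM in siPOU2F1 and 45.0, 37.4 and 50.8 FPKM in sicontrol. In both genes siPOU2F1 replicate 3 was the lowest of all 6 libraries and sicontrol replicate 2 the next, and the groups overlapped. The log2 differences of -0.04 for CD9 (95% interval -0.49 to 0.40) and -0.06 for CD82 (-0.50 to 0.38) became 0.14 and 0.12 without siPOU2F1 replicate 3 (limma, adjusted p from 0.451 to 0.911). CD63 had 277, 271 and 260 FPKM in siPOU2F1 and 266, 313 and 295 FPKM in sicontrol, also overlapping, with a log2 difference of -0.11 (95% interval -0.34 to 0.11; limma, adjusted p = 0.530), or -0.087 without siPOU2F1 replicate 3 (0.531).

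TSPAN4, a tetraspanin of migrasomes, the vesicles left on retraction fibres of moving cells, lies next to CD151 on chromosome 11, with 2976 bases between the genes on the same strand. TSPAN4 had 28.6, 33.7 and 38.6 FPKM in siPOU2F1 replicates 1 to 3, against 43.6, 50.7 and 44.1 FPKM in sicontrol replicates 1 to 3. The siPOU2F1 libraries were again all lower, and the log2 difference was -0.46 (SE 0.14; limma, adjusted p = 0.159), or -0.56 without siPOU2F1 replicate 3 (0.0208, called). The neighbours CD151 and TSPAN4 thus had differences of the same sign and like size. POLR2L, on the opposite strand, shares 6.53% of the exonic bases of CD151 and averaged 26.5 FPKM in siPOU2F1 and 27.8 FPKM in sicontrol. A further neighbouring pair on chromosome 11 differed in level: TSPAN32, a gene of blood cells 57976 bases from CD81, averaged 0.129 FPKM in siPOU2F1 and 0.277 FPKM in sicontrol.

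The TspanC8 group, which escorts the metalloprotease ADAM10 to the cell surface, had 5 tested members. Of these 0 were called (limma), where 1.24% of all tested genes were. An unadjusted p under 0.05 (limma) was found in 1 member, against 18.1% of all tested genes. The groups did not overlap in 1 member (20%), near the 23.4% of all tested genes. That one was TSPAN17, with 16.97, 16.8 and 22.7 FPKM in siPOU2F1 replicates 1 to 3, against 23.3, 23.4 and 24.6 FPKM in sicontrol replicates 1 to 3. All siPOU2F1 libraries were lower, but replicate 3 by little, and the log2 difference was -0.34 (SE 0.14; limma, adjusted p = 0.261), or -0.48 without that replicate (0.0169, called). TSPAN5 (0.14), TSPAN15 (0.31) and TSPAN33 (0.22) had positive log2 differences and TSPAN14 (-0.14) a negative one, none called (limma, adjusted p from 0.363 to 0.631, and from 0.119 to 0.251 without siPOU2F1 replicate 3). TSPAN5 averaged 25.1 FPKM in siPOU2F1 and 22.7 FPKM in sicontrol, and TSPAN15 22.04 FPKM in siPOU2F1 and 17.8 FPKM in sicontrol, so that both lay near TSPAN17. TSPAN33 averaged 11.7 ± 2.31 FPKM in siPOU2F1 and 10.06 ± 2.27 FPKM in sicontrol, and TSPAN14 4.02 ± 0.402 FPKM in siPOU2F1 and 4.47 ± 0.256 FPKM in sicontrol. TSPAN10 was below the level tested, at 0.422 ± 0.371 FPKM in siPOU2F1 and 0.495 ± 0.293 FPKM in sicontrol. ADAM10 itself had 14.7, 13.8 and 11.7 FPKM in siPOU2F1 and 12.4, 12.4 and 13.8 FPKM in sicontrol, with overlapping groups and a log2 difference of 0.05 (limma, adjusted p = 0.839; 0.340 without siPOU2F1 replicate 3).

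Of the remaining 10 tested TSPAN genes 0 were called (limma), where 1.24% of all tested genes were. An unadjusted p under 0.05 (limma) was found in 3, against 18.1% of all tested genes. Groups did not overlap in 3, TSPAN4 included, against 23.4% of all tested genes. TSPAN6 had 10.9, 10.8 and 11.5 FPKM in siPOU2F1 replicates 1 to 3, against 8.84, 9.09 and 9.33 FPKM in sicontrol replicates 1 to 3. Both groups were tight, siPOU2F1 replicate 3 was the highest of all, and the log2 difference was 0.27 (SE 0.10; limma, adjusted p = 0.241), or 0.24 without that replicate (0.122). TSPAN11 was low, with 0.493, 0.499 and 1.16 FPKM in siPOU2F1 against 1.21, 1.90 and 1.44 FPKM in sicontrol. Replicate 3 of siPOU2F1 nearly reached the lowest sicontrol library, and the log2 difference was -0.76 (SE 0.27; limma, adjusted p = 0.212), or -1.004 without that replicate (0.0196, called). On the log2(FPKM + 0.5) scale the change of so low a gene is understated.

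TSPAN31, a gene amplified in sarcomas, was called without siPOU2F1 replicate 3 although its groups overlapped with it, and is given in full for that reason, a choice made after its values were seen. It had 15.4, 16.8 and 29.8 FPKM in siPOU2F1 replicates 1 to 3, against 25.1, 25.0 and 22.2 FPKM in sicontrol replicates 1 to 3. Replicates 1 and 2 of siPOU2F1 were the lowest of the 6 libraries and replicate 3 was the highest. The log2 difference was -0.28 with all libraries (limma, adjusted p = 0.537) and -0.57 without siPOU2F1 replicate 3 (0.0156, called). TSPAN31 shares 25.4% of its exonic bases with CDK4 on the opposite strand, which averaged 103 FPKM in siPOU2F1 and 111 FPKM in sicontrol. The strand setting of the counting is not given in the sources used here, so reads of the pair may not have been told apart.

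The other tested TSPAN genes had positive log2 differences, none of them called. TSPAN13, the tested member with an octamer in its promoter, averaged 42.7 ± 6.59 FPKM in siPOU2F1 and 33.3 ± 7.03 FPKM in sicontrol (SD, n = 3 each). Its log2 difference was 0.36 (limma, adjusted p = 0.348, and 0.0862 without siPOU2F1 replicate 3). TSPAN3 (0.35), TSPAN9 (0.29), TSPAN2 (0.18), TSPAN12 (0.18) and TSPAN1 (0.18) had adjusted p from 0.390 to 0.803 (limma), and from 0.0687 to 0.925 without siPOU2F1 replicate 3. TSPAN12, a co-receptor with FZD4 for norrin in the retina, was the one of these whose sign changed without siPOU2F1 replicate 3, to -0.03. TSPAN12 had 1.72, 2.35 and 3.37 FPKM in siPOU2F1 and 2.31, 2.19 and 1.73 FPKM in sicontrol. TSPAN1 averaged 13.9 ± 2.19 FPKM in siPOU2F1 and 12.1 ± 0.394 FPKM in sicontrol, and TSPAN9 10.7 ± 1.81 FPKM in siPOU2F1 and 8.62 ± 1.27 FPKM in sicontrol. Both overlapped between the groups, as did TSPAN3, which varied widely in both groups, from 34.8 to 56.8 FPKM in siPOU2F1 and from 23.0 to 48.6 FPKM in sicontrol.

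**Figure D3:**
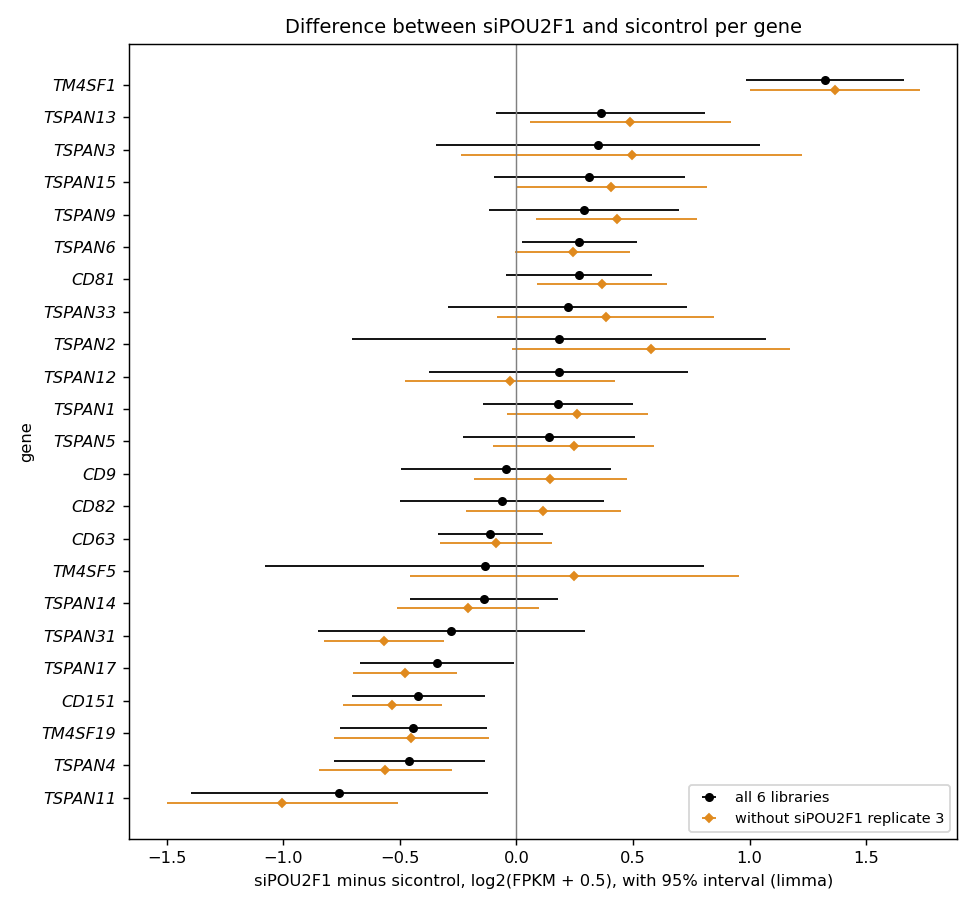
Log2 difference, siPOU2F1 minus sicontrol, on log2(FPKM + 0.5), with its 95% interval (limma) for the 23 tested members, with all 6 libraries (black) and without siPOU2F1 replicate 3 (orange). TM4SF1 at 1.32 and 1.37 stands to the right of all others, and CD151, TSPAN4, TSPAN17, TSPAN31 and TSPAN11 move further left without siPOU2F1 replicate 3.

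Without siPOU2F1 replicate 3, 1 of 23 members was called higher (9.48% of all tested genes were) and 5 of 23 lower (15.8% of all tested genes were), together 26.1% against 25.3% of all tested genes. The members called lower were CD151, TSPAN4, TSPAN17, TSPAN31 and TSPAN11. The library left out here was the one that stood apart in these same data, though its POU2F1 was as low as in its group. In the other fits that left out a library none of these members was called. Their lowest adjusted p there (limma) was 0.218, 0.243, 0.371, 0.538 and 0.303, in that order. The share of members called was thus near that of all genes.

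The members differed among the libraries in a way that crossed the siRNA groups. Relative to the sicontrol mean of each gene, the median tested member stood at 0.22, 0.15 and -0.07 on the log2 scale in siPOU2F1 replicates 1 to 3 and at -0.01, -0.05 and 0.18 in sicontrol replicates 1 to 3. The same medians over all tested genes were -0.042, -0.027 and 0.040 in siPOU2F1 and -0.0030, 0.0013 and 0.0085 in sicontrol. In 6 members (26.1%), CD81, TSPAN13, TSPAN15, TSPAN1, TSPAN33 and TSPAN9, siPOU2F1 replicates 1 and 2 lay above the sicontrol range and replicate 3 within it, as in 12.6% of all tested genes. The mirror pattern, replicates 1 and 2 below and replicate 3 within, was seen in 1 member (4.35%), against 13.7% of all tested genes. Replicates 1 and 2 lay below and replicate 3 above the sicontrol range in 1 member (4.35%), against 9.34%. In 8 members (34.8%) sicontrol replicate 2 and siPOU2F1 replicate 3 were the lowest pair of the 6 libraries, as in 16.2% of all tested genes. These 8 were CD9, CD82, TSPAN5, TSPAN15, TSPAN33, TSPAN9, TSPAN2 and TM4SF5. TSPAN2, a tetraspanin of oligodendrocytes, showed it widely, with 7.32, 6.503 and 2.75 FPKM in siPOU2F1 and 4.44, 3.16 and 6.25 FPKM in sicontrol. These patterns were picked out after the values were seen, genes are not independent, and the counts carry no test.

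**Figure D4:**
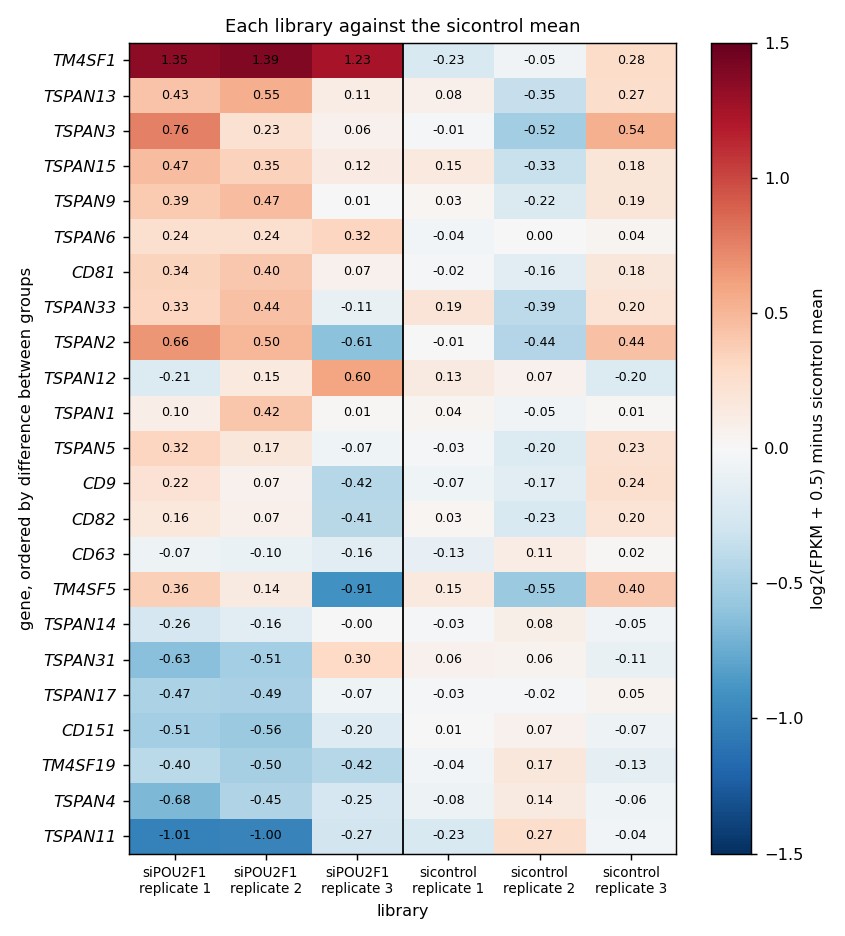
Each library's log2(FPKM + 0.5) minus the sicontrol mean of that gene, for the 23 tested members ordered by the difference between the groups; the 3 siPOU2F1 libraries stand left of the line and the 3 sicontrol libraries right of it, red is above and blue below the sicontrol mean. TM4SF1 is red in all siPOU2F1 libraries (1.35, 1.39 and 1.23), while TSPAN2, TM4SF5, CD9 and CD82 are blue in both siPOU2F1 replicate 3 and sicontrol replicate 2.

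Members below 1 FPKM include genes known from other tissues. CD37, a leukocyte tetraspanin, had 0.832, 0.803 and 0.244 FPKM in siPOU2F1 and 0.422, 0.298 and 0.414 FPKM in sicontrol, and CD37 shares 7.67% of its exonic bases with TEAD2 on the opposite strand, which averaged 12.5 FPKM in siPOU2F1 and 11.3 FPKM in sicontrol. TSPAN8, a colon cancer antigen, averaged 0.131 FPKM in siPOU2F1 and 0.136 FPKM in sicontrol, and was at 0 in 1 library of each group. TSPAN7, a neuronal tetraspanin, averaged 0.208 FPKM in siPOU2F1 and 0.140 FPKM in sicontrol, and shares 21.7% of its exonic bases with a further gene on the same strand. The other 7, CD53 with its octamer window among them, had a mean under 0.1 FPKM, and TSPAN19 and TM4SF20 were listed at 0 in all 6 libraries. No fold change is given at these levels.

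A 7-base word, AACTGCA, was present in the 3′ UTRs of 51.5% of the 99 genes called lower with a 3′ UTR. It was present in 0 of the 47 genes called higher, TM4SF1 among them, and in 12.1% of genes not called. The word was chosen from fold changes of these same libraries, so its presence or absence in members is a description. It occurred in the 3′ UTR of 2 of the 23 tested members (8.70%), against 12.4% of the 11518 tested genes with a 3′ UTR of at least 20 bases. The tested holders were TM4SF19 and TSPAN11, both among the 5 members whose siPOU2F1 libraries all lay below sicontrol. Neither was called (limma, adjusted p = 0.165 and 0.212), and their direction is not independent of how the word was chosen. CD151, TSPAN4, TSPAN17 and TM4SF1 held none. Among members too low to test, TSPAN7 held the word at 2 places, and it averaged 0.208 FPKM in siPOU2F1 and 0.140 FPKM in sicontrol. Windows of 30 bases are shown for the tested holders, with the word in capitals. TM4SF19 is at chr3:196319602-196319631 (minus strand) and TSPAN11 at chr12:30993420-30993449 (plus strand), GRCh38.
TM4SF19: attctttcaggAACTGCAtatagtacagaa
TSPAN11: aactgtccagaAACTGCAtcctcagcacag

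Genes of proteins that tetraspanins gather or depend on, and of their families and pathways, were examined as lists. They are named partner genes below, though a place in a list does not show action with a tetraspanin. Of the listed genes 68 were tested. Of these 1 was called higher and 1 lower (2.94%, against 1.24% of all tested genes called in either direction), and 24 had an unadjusted p under 0.05, which 18.1% of all tested genes had. Without siPOU2F1 replicate 3, 7 partner genes were called higher and 19 lower (38.8%), against 25.3% of all tested genes. ZDHHC11 was not tested in that fit. The lists were chosen with earlier results of these data known, so the shares here and below carry no test. The calls with all libraries were both palmitoyltransferases, and they moved in opposite directions. ZDHHC20 fell, with 29.8, 33.8 and 28.3 FPKM in siPOU2F1 replicates 1 to 3, against 53.7, 49.1 and 53.3 FPKM in sicontrol replicates 1 to 3 (log2 difference -0.76, SE 0.11; limma, adjusted p = 0.0320). ZDHHC18 rose, with 7.91, 8.19 and 9.43 FPKM in siPOU2F1, against 4.50, 5.12 and 4.08 FPKM in sicontrol (0.83, SE 0.14; limma, adjusted p = 0.0481). Both calls were lost in 5 of the 6 fits that left out a library, in each of which 0 partner genes were called (limma; 12 to 22 at an unadjusted p under 0.05), and both held without siPOU2F1 replicate 3 (adjusted p = 0.00912 for ZDHHC20 and 0.0134 for ZDHHC18). The 20 tested ZDHHC genes had a median log2 difference of -0.02, near the -0.01 of all tested genes.

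The laminin-binding integrin partners of CD151 gave differences of both signs, none called with all libraries. ITGA3, the integrin alpha 3 chain, had 95.4, 93.1 and 109 FPKM in siPOU2F1, against 139, 149.7 and 151 FPKM in sicontrol. All siPOU2F1 libraries were lower, yet the log2 difference of -0.56 (SE 0.10) missed the threshold (limma, adjusted p = 0.0563; 0.00823 without siPOU2F1 replicate 3). ITGB4, which pairs with the alpha 6 chain, lay the other way, with 98.9, 109 and 85.7 FPKM in siPOU2F1, against 67.0, 72.5 and 74.4 FPKM in sicontrol (0.45, SE 0.12; limma, adjusted p = 0.123). Without siPOU2F1 replicate 3 the difference of ITGB4 was 0.54 (limma, adjusted p = 0.0138, called). ITGA6 overlapped between the groups (-0.09; limma, adjusted p = 0.574; 0.310 without siPOU2F1 replicate 3). The integrin list had 0 called genes of 9 (limma) and a median of -0.09. An unadjusted p under 0.05 (limma) was found in 5 of them, against 18.1% of all tested genes. Without siPOU2F1 replicate 3, 1 integrin gene was called higher and 3 lower, together 44.4%. In that fit 9.48% of all tested genes were called higher and 15.8% lower, together 25.3%.

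The other lists held 0 called genes with all libraries (limma). Without siPOU2F1 replicate 3, 7 of the surface partners (53.8%), 2 of the ADAM list (22.2%) and 5 of the vesicle list (31.2%) were called, against 25.3% of all tested genes. With all libraries 7 of 13 surface partners had an unadjusted p under 0.05, which 18.1% of all tested genes had, and the lowest adjusted p were those of EGFR, the epidermal growth factor receptor, with a log2 difference of -0.87 (limma, adjusted p = 0.0622), and IGSF8, an immunoglobulin-superfamily partner of CD9 and CD81, with 0.93 (0.121). Of 9 ADAM sheddases and substrates 2 had an unadjusted p under 0.05, NOTCH2 (-0.34; limma, adjusted p = 0.149) and ADAM17 (-0.43; 0.207). Of 16 genes of vesicle sorting and release 4 had an unadjusted p under 0.05, with ARF6 (-0.44; limma, adjusted p = 0.139) and FLOT2 (0.31; 0.190) lowest. Without siPOU2F1 replicate 3 the adjusted p (limma) was 0.00528 for EGFR, 0.0132 for IGSF8, 0.0451 for NOTCH2, 0.0192 for ADAM17 and 0.0110 for ARF6, all called with the same sign, and 0.0640 for FLOT2, not called. The medians of the 3 lists were -0.08, 0.10 and -0.04. UPK1A, the 1 tested gene of the 4 tetraspanins with other names, had a log2 difference of 0.15 (limma, adjusted p = 0.787).

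**Figure D5:**
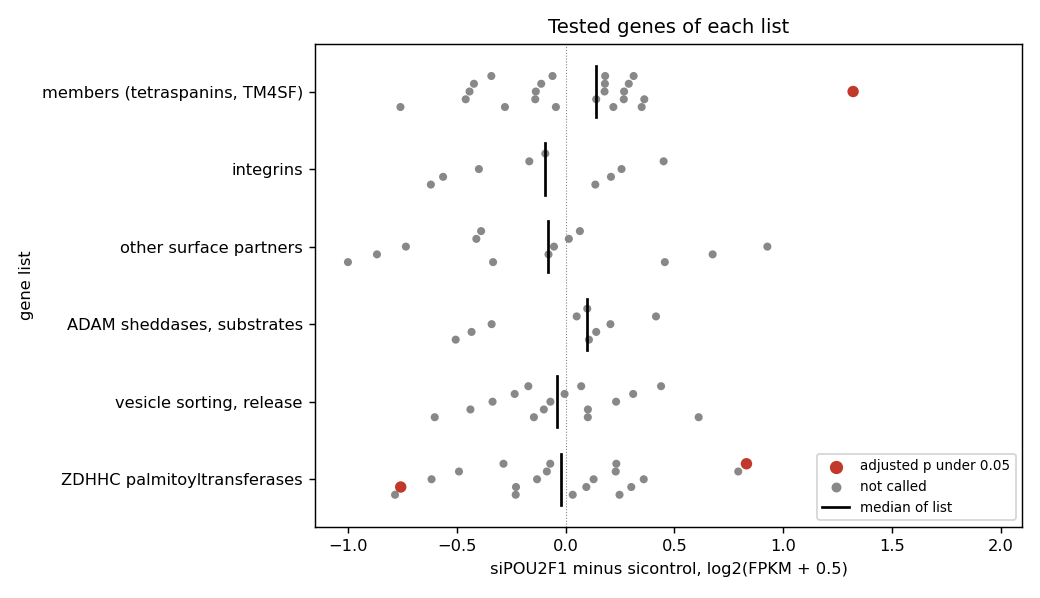
Log2 difference, siPOU2F1 minus sicontrol, of each tested member and of each tested gene in 5 lists of partner genes, as named in the text. Red points had an adjusted p under 0.05 (limma), grey points did not, and black bars are list medians. TM4SF1 at 1.32 is the one red point among members, and ZDHHC20 (-0.76) and ZDHHC18 (0.83) are the red points among the listed genes.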

How the data were processed

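The authors deposited 1 table per library of FPKM values, which they had computed from reads; per the submitters' processing notes HISAT2 2.0.4, Bowtie2 2.2.5, StringTie 2.1.2 and hg38 were used, with no role given to each tool. Per the labels' protocols, libraries were made from 2 µg of total RNA with a directional kit; which annotation, filters or strand setting the counting used is not stated there. FPKM values hold no counts, so absolute depth is unknown. The most frequent ratio among low values (shared by 8 to 15 genes of 403 to 515, within 0.002 on the log2 scale, so a rough estimate) put depth relative to sicontrol replicate 1 at 0.930 and 0.902 for sicontrol replicates 2 and 3 and at 0.778, 0.973 and 0.940 for siPOU2F1 replicates 1 to 3. Libraries had 11670 to 11853 annotated genes at 1 FPKM or more.

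Deposited values were used without rescaling, as log2(FPKM + 0.5), for the 11831 of 20474 annotated genes averaging at least 1 FPKM; 2308 assembled transcripts were left out. limma 3.58.1 in R 4.3.3 was fitted with a mean-variance trend and group as the only term, with Benjamini-Hochberg adjustment over all tested genes, and tested on simulated data. The members and lists were chosen with earlier results of these data known. Members averaging at least 1 FPKM are named; library values are given for called members, those without overlap and the 6 highest; each partner list gives its called genes and the 2 with the lowest p. ADAM10, ITGA6 and the library values of TSPAN2, TSPAN12, TSPAN31, TM4SF5 and members below 1 FPKM were added after their values were seen. Alternatives were other pseudocounts, filters, scalings, library weights, a replicate block and leaving out each library. Positions, overlaps and 3′ UTRs (basic transcript with the longest coding sequence) came from GENCODE 29, promoters from RefSeq. Python 3.11.15 with pandas 2.3.3 and matplotlib 3.10.9 was used.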

Additional observations from a re-analysis of the deposited data

How the results depend on the processing

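TM4SF1 stayed higher in siPOU2F1 in every fit run, between 1.21 and 1.51 on the log2 scale, and was called in 7 of 8 alternatives that kept all libraries and in 2 of the 6 that left 1 out (limma, adjusted p from 0.000148 to 0.243). The exception among the first was the replicate block, which kept its difference at 1.32 with an adjusted p of 0.243 and left POU2F1 at -0.99 (0.297), 0 members, 0 partner genes and 0 genes in all called (1208 at an unadjusted p under 0.05). Whether same-numbered libraries were handled together is not known. Deviations of same-numbered libraries from their group means correlated at 0.13, -0.54 and -0.51, while siPOU2F1 replicate 3 and sicontrol replicate 2 did so at 0.64. With 3 libraries per group, and siPOU2F1 replicate 3 apart from its group, these correlations cannot decide whether libraries were paired. POU2F1 was also not called with no filter (-0.99, adjusted p = 0.0650), and had -1.06 to -0.95 when a library was left out. TM4SF1 had 1.21 to 1.46 in those fits.

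Library weights changed most counts: 2651 genes were called higher and 3312 lower, with 7 members higher and 6 lower and 18 partner genes higher and 23 lower. Leaving out 1 library gave 0 to 1120 genes higher and 0 to 1870 lower, 0 to 1 members higher and 0 to 5 lower, and 0 to 7 partner genes higher and 0 to 19 lower. With no filter 24 genes were called higher and 48 lower and 0 partner genes higher; scaling to nuclear genes left 0 partner genes higher. The filter at 5 FPKM called 3 partner genes lower and quantile normalization 2. Signs reversed under library weights for CD9 (0.14), CD82 (0.061), TM4SF5 (0.071) and TSPAN12 (-0.018), none called. Over the fits leaving out 1 library CD9 ranged from -0.18 to 0.14, CD82 from -0.18 to 0.12, TM4SF5 from -0.41 to 0.25, TSPAN12 from -0.027 to 0.37 and TSPAN2 from -0.056 to 0.58. The causes were not tested. Depth is unknown, so low members such as TSPAN11 and TM4SF5 have no counting interval; 19 members were tested with the filter at 5 FPKM.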
